A study of Mus musculus with 9 samples.

Results

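Abcc4 and Abcb11 were examined as loci that carried several Sox2 binding summits. They were chosen from the peak lists themselves: all summits within the RefSeq span of either gene, or within 50 kb of it, were collected from the 3 Sox2 ChIP-seq lists (chromatin immunoprecipitation followed by sequencing), and regions were matched between lists by an overlap of 1 bp. The loci are 2 of 21887 protein-coding genes, and they held 17 of the 3370 listed summits. Of these, 7 were listed with Nkx2-1 deletion, 2 with ectopic Sox2 alone and 8 in wildtype. Because the numbers of summits chose these genes, they are given as a description and were not tested.

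Abcc4 encodes the transporter also called Mrp4, an ATP-driven pump of the C subfamily of ABC proteins that exports cyclic nucleotides, prostaglandins and conjugated organic anions from cells. Abcb11 encodes the bile salt export pump, known from the canalicular membrane of hepatocytes, where its loss blocks bile salt secretion. Sox2, a high-mobility-group transcription factor, is found in the oesophageal and conducting airway epithelium, whereas the homeodomain factor Nkx2-1 sets lung identity. A Sox2 summit is a position of maximal ChIP signal, and it need not regulate the gene that lies over or near it.

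All samples were lung epithelial cells of C57BL/6 mice aged 8 weeks. The groups carried ectopic Sox2 expression together with Nkx2-1 deletion, ectopic Sox2 expression alone, or neither (wildtype). What drives Sox2, how Nkx2-1 was deleted and how many animals made up a sample were not given in the sources used here. Each group has 1 library each for Sox2 ChIP, IgG and input, and the peak lists of the 3 Sox2 ChIP libraries were analysed. With 1 library per group, differences between groups could not be set against a spread between replicates, and p-values are not given. Peak lists carry no expression value, so cell identity, Sox2 and Nkx2-1 were taken from the labels. The mean ChIP coverage recovered from the listed values was 1.45 fragments per position with Nkx2-1 deletion, 0.764 with ectopic Sox2 alone and 0.963 in wildtype, and the lists held 2589, 229 and 552 summits in that order. The fewest fragments at any listed summit were 15 with Nkx2-1 deletion, 10 with ectopic Sox2 alone and 10 in wildtype.

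Abcc4 (gene identifier 239273) spans chromosome 14, 118482692 to 118707856 (mm10), on the minus strand, a span of 225 kb. RefSeq gives it start sites at 118706219 and 118676931, both inside this span. Abcb11 (gene identifier 27413) spans chromosome 2, 69238282 to 69342616, also on the minus strand, a span of 104 kb with its start at 69342616. The 250 bases before each start (RefSeq, GRCm38.p6, minus strand, 5′ to 3′) are shown. Distances given as downstream or upstream of a start are counted from these starts, and no summit region reached the printed bases. Distances to a span or to another gene are named as such. Capitals mark the Sox letters searched for, ACAAT and ACAAAG, on either strand.
Abcc4, start at 118706219 (chr14:118706220-118706469): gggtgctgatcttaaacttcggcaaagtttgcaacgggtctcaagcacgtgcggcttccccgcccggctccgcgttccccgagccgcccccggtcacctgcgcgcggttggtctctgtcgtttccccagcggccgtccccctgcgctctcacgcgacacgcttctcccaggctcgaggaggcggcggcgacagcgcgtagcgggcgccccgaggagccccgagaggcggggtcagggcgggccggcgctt
Abcc4, start at 118676931 (chr14:118676932-118677181): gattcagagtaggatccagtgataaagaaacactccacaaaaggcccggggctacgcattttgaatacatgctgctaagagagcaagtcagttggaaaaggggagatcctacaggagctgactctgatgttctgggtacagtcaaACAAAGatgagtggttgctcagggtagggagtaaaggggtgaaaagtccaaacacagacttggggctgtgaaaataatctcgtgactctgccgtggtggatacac
Abcb11, start at 69342616 (chr2:69342617-69342866): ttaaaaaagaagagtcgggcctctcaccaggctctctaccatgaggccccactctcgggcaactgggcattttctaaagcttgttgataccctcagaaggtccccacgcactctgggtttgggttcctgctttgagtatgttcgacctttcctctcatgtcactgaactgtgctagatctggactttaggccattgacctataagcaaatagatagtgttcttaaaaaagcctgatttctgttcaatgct

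None of the 17 summit regions overlapped a promoter window of any gene, where a window runs from 250 bases before to 50 bases after a start. Among all listed summits 2.39% did so with Nkx2-1 deletion, 14.0% with ectopic Sox2 alone and 3.99% in wildtype. At these shares and with 17 summits, nothing is read from the absence. The outer Abcc4 window had a base composition of 72.7% G or C and held neither set of letters, and the Abcb11 window, at 45.3%, held neither. The inner Abcc4 window, at 47.3%, held ACAAAG on the printed strand, starting 105 bases before the start site. ACAAT occurs on either strand in 31.0% of the 32851 RefSeq promoter windows of 300 bases, and ACAAAG in 18.7%. These matches describe letters only.

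Across the groups, Abcc4 held 5 summits with Nkx2-1 deletion, 1 with ectopic Sox2 alone and 5 in wildtype. Abcb11 held 2, 1 and 3 summits in the same order. Of all protein-coding genes, those with at least 1 summit nearby made up 13.1% in the Nkx2-1 deleted list, 1.53% in the ectopic Sox2 list and 2.85% in the wildtype list. Both loci had a summit in every list, as did 106 protein-coding genes in all, or 0.484%. The counts chose these genes, so nothing is read from their distance to this background.

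**Figure D1:**
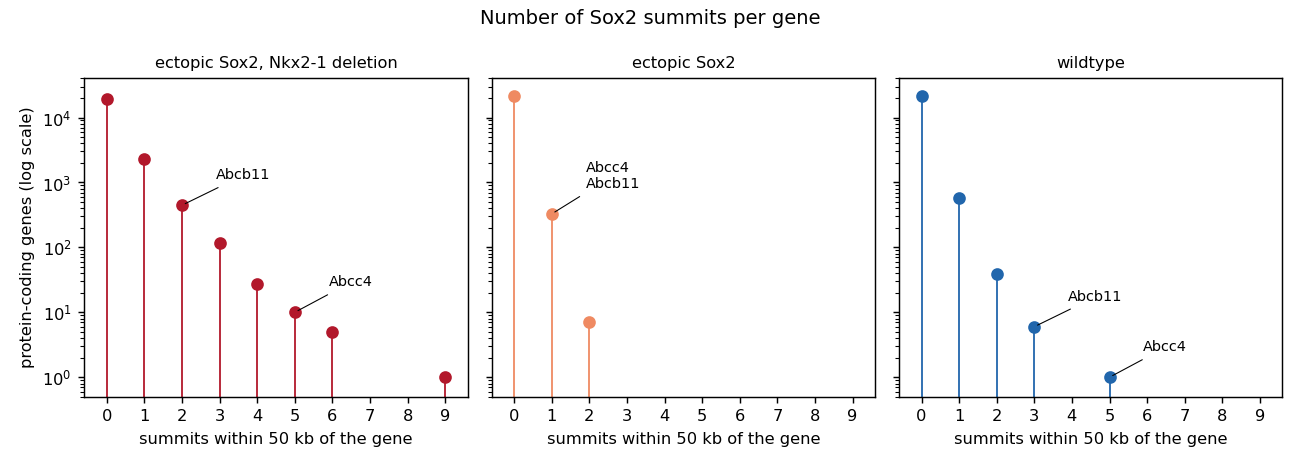
Number of protein-coding genes (log scale) by the number of Sox2 summits within 50 kb, with 1 panel per library. Abcc4 stands alone at 5 summits in wildtype, Abcb11 shares 3 summits with 5 other genes there, and with ectopic Sox2 both share a count of 1 with most genes that have any.

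In wildtype no other protein-coding gene reached the 5 summits of Abcc4 (0.00457% of genes had 5 or more). The next highest count was 3, at Abcb11, Arhgap24, Lpp, Mipol1, Sox5 and Sox6 (0.032% of genes had 3 or more). For Abcb11, 2 of the 3 lay in 1 region, and with each region counted once its count was 2. With Nkx2-1 deletion 0.0731% of genes, 16 in number, had 5 or more summits, led by Sox6 with 9. There, 0.726% of genes had at least 3 and 2.76% at least 2, the count of Abcb11; in wildtype 0.21% had at least 2. Abcc4 is long, and a long span can collect summits. The 268 protein-coding genes with spans of 200 to 250 kb, Abcc4 among them, averaged 0.433 summits with Nkx2-1 deletion, 0.0261 with ectopic Sox2 alone and 0.127 in wildtype. Of these genes, 30.2%, 2.61% and 9.70% had any summit in the same order. The 834 genes of 90 to 120 kb, Abcb11 among them, averaged 0.303, 0.0288 and 0.0468 summits in the same order, and 22.9%, 2.76% and 3.96% had any. The part of span length in the counts of Abcc4 and Abcb11 was not tested. Both genes also had summits inside their spans in every list. Within 10 kb of the span, Abcc4 had 4 with Nkx2-1 deletion, 1 with ectopic Sox2 alone and 5 in wildtype, and Abcb11 had 1, 1 and 2. Of all protein-coding genes, 6.47%, 0.736% and 1.37% had any at that distance in the same order. Among summits with a −log10 q of at least 5 (q being the authors' false discovery rate), Abcc4 held 4 with Nkx2-1 deletion, 0 with ectopic Sox2 alone and 2 in wildtype, and Abcb11 held 1 in each. Of all genes, 8.83%, 1.18% and 1.88% were near a summit of that strength. Within 100 kb of any wildtype summit lay 4.66% of all genes and 8 of the 53 ABC transporter genes.

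Per 100 kb of span and flanks, Abcc4 had 1.54 summits with Nkx2-1 deletion, 0.308 with ectopic Sox2 alone and 1.54 in wildtype. Abcb11 had 0.979, 0.489 and 1.47.

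In wildtype the summits of Abcc4 were concentrated in the middle of the gene. Of its 5 summits, 4 fell within 46.3 kb, with gaps of 9.81, 13.4 and 23.1 kb, and the fifth lay 99.4 kb away towards the start. No other stretch of 50 kb in the wildtype list began with as many as 4 summits. With Nkx2-1 deletion the 5 summits were spread more evenly, with gaps of 33.4, 40.4, 23.2 and 23.1 kb, and at 16 places in that list 4 summits fell within 50 kb. The 17 summits of both genes resolved into 9 sites, 7 at Abcc4 and 2 at Abcb11. Of the Abcc4 sites, 1 was in all lists, 2 were in the Nkx2-1 deleted and wildtype lists, 2 were listed only with Nkx2-1 deletion and 2 only in wildtype. Of the Abcb11 sites, 1 was in all lists and 1 in the Nkx2-1 deleted and wildtype lists.

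**Figure D2:**
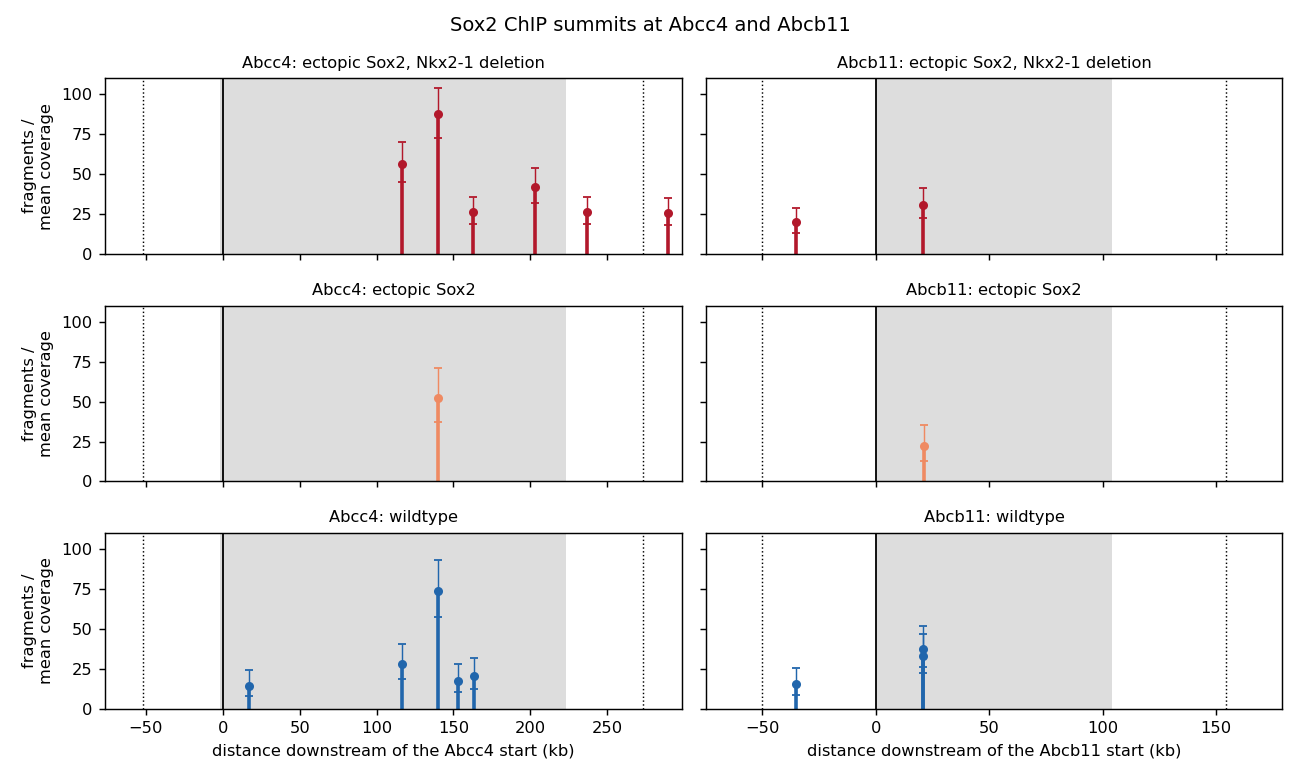
Summits at Abcc4 (left) and Abcb11 (right) by library, drawn by distance downstream of the gene start in kb (the outer start of Abcc4), with height giving ChIP fragments divided by the library's mean coverage and bars the exact Poisson 95% interval. Grey marks the gene span and dotted lines the 50 kb limits; the tallest Abcc4 summit lies 139.8 kb downstream in every library.

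The site common to all lists at Abcc4 carried the most fragments of any summit near either gene. It lies within the span, 139.8 kb downstream of the outer start, at chromosome 14, 118566225 to 118566651 over the lists. Its summit fell at 118566430 with Nkx2-1 deletion, 118566420 with ectopic Sox2 alone and 118566426 in wildtype, a spread of 10 bp. The Nkx2-1 deleted library had 127 fragments there (interval 106 to 151), the ectopic Sox2 library 40 (28.6 to 54.5) and the wildtype library 71 (55.5 to 89.6). No wildtype summit had more fragments, and with Nkx2-1 deletion only 2 of 2589 summits had more, whereas with ectopic Sox2 it was 28th of 229.

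Scaled by mean coverage, this Abcc4 site had 87.5 fragments with Nkx2-1 deletion, 52.4 with ectopic Sox2 alone and 73.7 in wildtype. The depth-scaled ratio of Nkx2-1 deletion over ectopic Sox2 was 1.67 (1.16 to 2.45), an interval above 1, and the ratio over wildtype was 1.19 (0.881 to 1.61), an interval that includes 1. Between ectopic Sox2 and wildtype the ratio was 0.710 (0.470 to 1.06), which also includes 1. Over all summits shared by the respective lists, the median ratio was 1.27 for Nkx2-1 deletion over ectopic Sox2 (119 summits), 1.33 for Nkx2-1 deletion over wildtype (273) and 0.954 for ectopic Sox2 over wildtype (101). Of those 119 shared summits, 21 had a ratio at least as high as Abcc4. Of the same 119, 27 had an interval above 1 and 5 an interval below 1. When the libraries were scaled by the regions found in every list, in place of mean coverage, the Abcc4 ratio of Nkx2-1 deletion over ectopic Sox2 was 1.27 (0.881 to 1.86), an interval that includes 1. With the same scaling the ratio of Nkx2-1 deletion over wildtype was below 1, at 0.947 (0.703 to 1.28), so its direction depends on the scaling.

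The control library was high at the same site, as measured by the control background that entered the authors' fold (ChIP over local control). Its local background was 8.13 times the genome-wide level with Nkx2-1 deletion, 14.4 times with ectopic Sox2 and 7.01 times in wildtype, where medians over all listed summits were 3.25, 2.46 and 2.80. Only 1.75% of ectopic Sox2 summits had as high a background. The authors' fold, set within each list, was 9.13 with Nkx2-1 deletion, 3.32 with ectopic Sox2 alone and 8.93 in wildtype. The −log10 q was 29.2, 2.94 and 27.7 in the same order, so that the ectopic Sox2 summit was 201st of 229 by q while 28th by fragments. After the control background was subtracted, 115 fragments remained with Nkx2-1 deletion, 29.0 with ectopic Sox2 alone and 64.3 in wildtype, and the ratio of Nkx2-1 deletion over ectopic Sox2 became 2.09. The control's own counting error is not part of any interval here. The part of the control background in the differences between libraries was not tested.

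**Figure D3:**
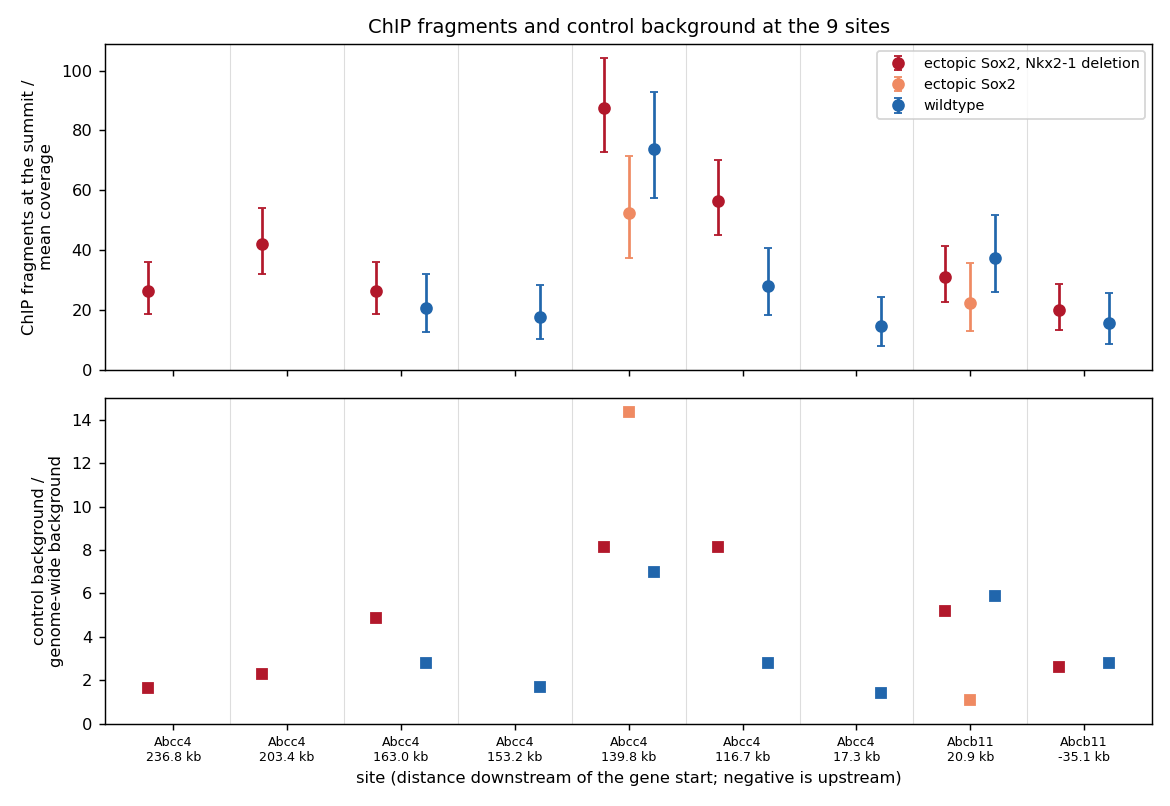
ChIP fragments at the summit divided by mean coverage (top, exact Poisson 95% intervals) and control background divided by its genome-wide level (bottom) at the 9 sites, named by gene and distance from the start in kb. A site without a point in a library is not in that library's list; the highest control background, 14.4, belongs to ectopic Sox2 at the Abcc4 site that also has the most fragments.

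A neighbouring Abcc4 site, 116.7 kb downstream of the outer start, differed most between the Nkx2-1 deleted and wildtype libraries among the sites these share. Its summit at 118589488 had 82 fragments (65.2 to 101.8) with Nkx2-1 deletion, and that at 118589480 had 27 (17.8 to 39.3) in wildtype. Their depth-scaled ratio was 2.02 (1.29 to 3.24), an interval above 1, and 35 of the 273 shared summits had a ratio at least as high. Of the same 273, 84 had an interval above 1 and 3 an interval below 1. The control background also differed, at 8.13 times the genome-wide level with Nkx2-1 deletion and 2.80 times in wildtype, and its part in the ratio was not tested. With that background subtracted the ratio was 1.92, and scaled by the regions found in every list it was 1.61 (1.03 to 2.58). The fold was 5.95 at −log10 q 12.7 with Nkx2-1 deletion, and 7.0001 at −log10 q 8.92 in wildtype. The microRNA gene Mir6391, which lies inside Abcc4, was 2.88 kb from the Nkx2-1 deleted summit and 2.89 kb from the wildtype summit.

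The other shared Abcc4 site, 163.0 kb downstream, had 38 fragments (26.9 to 52.2) at 118543215 with Nkx2-1 deletion and 20 (12.2 to 30.9) at 118543173 in wildtype. The ratio of 1.26 (0.715 to 2.29) includes 1. Its fold was 4.27 with Nkx2-1 deletion and 5.27 in wildtype, at −log10 q of 3.86 and 3.94. Its control background was 4.88 times the genome-wide level with Nkx2-1 deletion and 2.80 times in wildtype.

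The Abcc4 sites listed only with Nkx2-1 deletion lay towards and beyond the far end of the gene. The stronger, at 118502669 to 118502992, had 61 fragments (46.7 to 78.4), a fold of 11.2 and a −log10 q of 17.8, the 66th of 2589. Its control background was 2.28 times the genome-wide level, below the median of the list, and it had the highest fold of all 17 summits. The other lay 13.3 kb outside the span, at 118469240 to 118469542, with 38 fragments (26.9 to 52.2) and a control background of 1.63. Just outside the 50 kb limit, 66.3 kb from the span, a further Nkx2-1 deleted summit at 118416375 had 37 fragments and a fold of 8.33. The summits farthest out but within the limit were those 35.1 kb (Nkx2-1 deletion) and 35.2 kb (wildtype) from Abcb11.

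The Abcc4 sites listed only in wildtype had few fragments, beside medians of 24 fragments and a fold of 5.80 over that list. They had 17 fragments (9.90 to 27.2) at 118552980 and 14 (7.65 to 23.5) at 118688886, with folds of 6.18 and 5.69 and −log10 q of 4.65 and 3.61. The control background there was 1.68 and 1.401 times the genome-wide level, below the median of the wildtype list. The second of these lies 17.3 kb downstream of the outer start and 12.0 kb upstream of the inner one, the nearest of the Abcc4 summits to either start. Absence from a list means only that no summit passed the authors' threshold there, and fragments below it were not analysed here.

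As a description of depth, the recovered fragments of each listed summit were reduced to ectopic Sox2 depth, and the probability of still passing the lowest −log10 p of that list was summed. For Abcc4 this gave 4.69 of 5 summits with Nkx2-1 deletion and 4.41 of 5 in wildtype, and 1 of the 5 in each had a region in the ectopic Sox2 list. For Abcb11 it gave 1.55 of 2 with Nkx2-1 deletion and 1.35 of 3 in wildtype, and 1 of the 2 and 2 of the 3 had such a region. The sums start from summits that were listed, which favours high fragment numbers, and keep each summit's own control background, which at the common Abcc4 site was lower than with ectopic Sox2. Over the whole lists, 4.6% of Nkx2-1 deleted summits and 18.3% of wildtype summits had a region in the ectopic Sox2 list. No such sum is given for the whole lists, so few matches are not particular to these genes. The part of depth in the absences was not tested.

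Abcb11 had its common site within the span, 20.8 to 21.1 kb downstream of the start, at chromosome 2, 69321421 to 69322043 over the lists. The Nkx2-1 deleted list gave a summit at 69321740, the ectopic Sox2 list at 69321554, and the wildtype list at both 69321663 and 69321822 in 1 region. These positions spread over 268 bp, against 10 bp at the common Abcc4 site. Between shared summits in general the median shift was 21 bp for Nkx2-1 deletion against ectopic Sox2, 25 bp for Nkx2-1 deletion against wildtype and 19 bp for ectopic Sox2 against wildtype. At Abcb11 the shifts between the highest summits were 186, 82 and 268 bp, and the last of these was the largest of the 101 pairs. The region was 273 bp wide with Nkx2-1 deletion, 623 bp with ectopic Sox2, the widest of that list, and 474 bp in wildtype.

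Fragments at the common Abcb11 site numbered 45 (32.8 to 60.2) with Nkx2-1 deletion, 17 (9.90 to 27.2) with ectopic Sox2, and 36 (25.2 to 49.8) and 32 (21.9 to 45.2) at the wildtype summits. Scaled by mean coverage, the highest summit had 31.0 with Nkx2-1 deletion, 22.3 with ectopic Sox2 alone and 37.4 in wildtype. The ratios were 1.39 (0.782 to 2.596) for Nkx2-1 deletion over ectopic Sox2, 0.829 (0.523 to 1.32) for Nkx2-1 deletion over wildtype and 0.596 (0.314 to 1.09) for ectopic Sox2 over wildtype. All of these intervals include 1. The medians over all shared summits were 1.27, 1.33 and 0.954 in the same order. Ratios at least as high as at Abcb11 were found at 48 of 119, 249 of 273 and 97 of 101 shared summits. Both ratios over wildtype were thus low among shared summits. Scaled by regions in every list, the ratios were 1.06 (0.593 to 1.97), 0.662 (0.417 to 1.06) and 0.630 (0.332 to 1.15). These intervals also include 1.

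By the authors' fold the common Abcb11 site stood in another order within the lists. The fold was 4.77 with Nkx2-1 deletion, 7.79 with ectopic Sox2 alone, and 5.32 and 3.09 in wildtype. The control background at these summits was 5.21 times the genome-wide level with Nkx2-1 deletion, 1.07 times with ectopic Sox2, and 5.88 and 9.81 times in wildtype. The ectopic Sox2 summit, with the fewest fragments, thus had the highest fold and nearly the genome-wide control level.

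**Figure D4:**
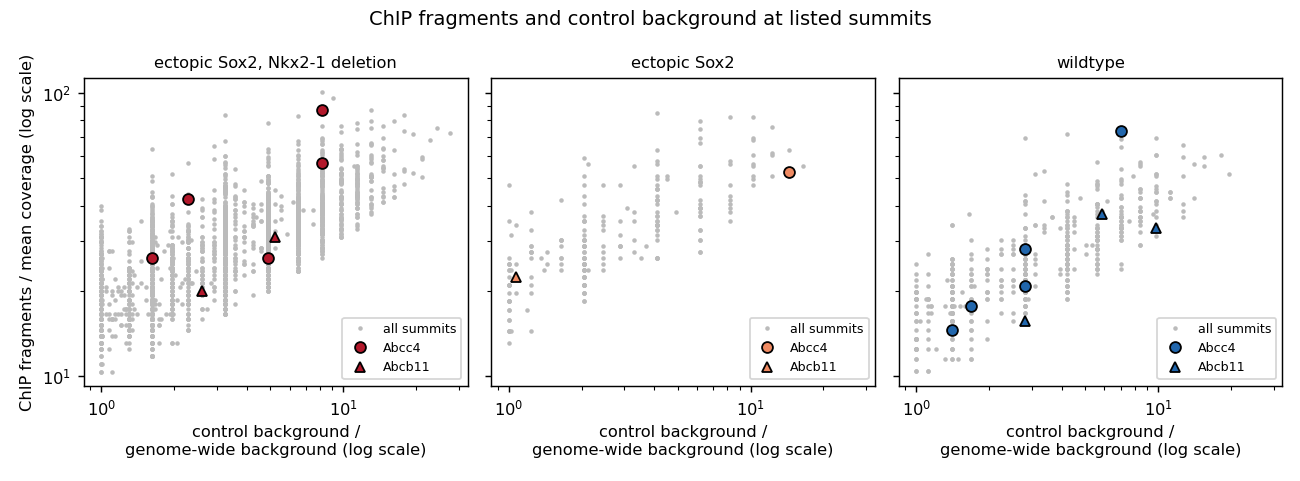
ChIP fragments divided by mean coverage against control background divided by its genome-wide level (both log scales) for all listed summits (grey) and those of Abcc4 (circles) and Abcb11 (triangles), by library. In wildtype an Abcc4 summit is the highest point at 73.7, and the ectopic Sox2 points of the 2 genes lie at background levels of 14.4 and 1.07.

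The second Abcb11 site lay outside the gene, upstream of its start, and was listed with Nkx2-1 deletion (summit 69377707, 29 fragments, 19.4 to 41.6) and in wildtype (69377785, 15 fragments, 8.40 to 24.7). Its ratio of 1.28 (0.666 to 2.57) includes 1. The fold was 5.11 with Nkx2-1 deletion and 4.04 in wildtype, at −log10 q of 3.94 and 1.91, the last being the lowest −log10 q of the 17 summits. It is nearer to Dhrs9, a short-chain dehydrogenase gene of retinol metabolism on the plus strand, whose start lies 2.76 kb from the Nkx2-1 deleted summit and 2.68 kb from the wildtype summit, than to Abcb11, at 35.1 and 35.2 kb. The long non-coding RNA gene Gm36393 is nearer still, at 1.14 and 1.07 kb. Lrp2, which encodes the endocytic receptor megalin, is 46.6 kb from both summits. G6pc2, Spc25 and Nostrin, on the other side of Abcb11, had no summit within 50 kb in any list.

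Around Abcc4 the neighbouring protein-coding genes are farther off. Cldn10, a claudin gene of tight junctions, lies 80.0 kb from the span and had no summit within 50 kb in any list. Sox21, a Sox family gene related to Sox2, lies 246 kb away on the other side, and had 1 summit within 50 kb in wildtype and none with Nkx2-1 deletion or ectopic Sox2. No other protein-coding gene lay within 50 kb of an Abcc4 summit.

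**Figure D5:**
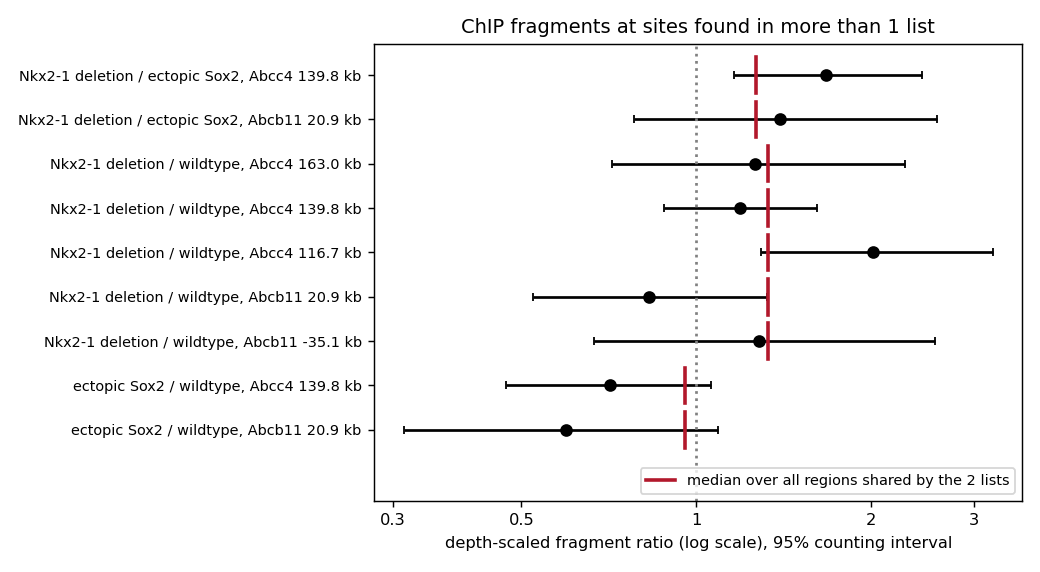
Depth-scaled ratios of ChIP fragments (log scale) with exact conditional binomial 95% intervals at sites in more than 1 list, named by gene and distance from the start, with the median over all shared summits in red. The intervals lie above 1 for Nkx2-1 deletion over ectopic Sox2 at the Abcc4 site at 139.8 kb and over wildtype at the site at 116.7 kb. The other 7 include 1, and with the other scaling the interval at 139.8 kb includes 1. Over all shared summits, intervals above 1 numbered 27 of 119 for Nkx2-1 deletion over ectopic Sox2 and 84 of 273 over wildtype.

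Set against the whole lists, the overlap at these genes can be read from each side. Of the 5 Nkx2-1 deleted summits at Abcc4, 3 had a region in the wildtype list and 1 in the ectopic Sox2 list, where 10.5% and 4.6% of all Nkx2-1 deleted summits did. For Abcb11 the numbers were 2 of 2 and 1 of 2. The ectopic Sox2 summit of each gene had a region in both other lists, where 52% of ectopic Sox2 summits had one in the Nkx2-1 deleted list and 44.1% in the wildtype list. Of the 5 wildtype Abcc4 summits, 3 had a region in the Nkx2-1 deleted list and 1 in the ectopic Sox2 list, and of the 3 at Abcb11, 3 and 2 did. Of those 3 at Abcb11, 2 lay in the same region. The shares of all wildtype summits were 49.5% and 18.3%. The genes were chosen by their summits in these same lists, which can raise the overlap. Nothing is therefore read from its distance to the shares of the whole lists.

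Judged by the nearest numbers of summits in the lists, the genes most like Abcc4 were Lpp with 4, 1 and 3 summits (Nkx2-1 deletion, ectopic Sox2, wildtype), Rbms3 with 5, 1 and 2, Exoc6b with 5, 1 and 1, Sox5 with 3, 1 and 3, and Mipol1 with 3, 0 and 3. All are longer than Abcc4: Mipol1 spans 227 kb and Rbms3 1057 kb. Those most like Abcb11 were Fkbp9, Mthfd1l and Mecom with 2, 1 and 2 summits each, Sox5, and the uncharacterised LOC108168726 with 2, 1 and 1.

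Of the 53 genes that encode ABC transporters, 12 lay within 50 kb of an Nkx2-1 deleted summit, 3 of an ectopic Sox2 summit and 5 of a wildtype summit. These are 22.6%, 5.66% and 9.43% of the list, beside 13.1%, 1.53% and 2.85% of all protein-coding genes. The shares of all genes are not matched for span, and a long span can collect summits. Of the 834 genes of 90 to 120 kb, 22.9%, 2.76% and 3.96% had any summit in the same order. The part of span length in the ABC shares was not tested. Without Abcc4 and Abcb11 the counts of ABC genes were 10, 1 and 3 of 51. Only these 2 had a summit in every list. Cftr, the epithelial chloride channel of the same C subfamily, came nearest, with 4 summits inside the gene with Nkx2-1 deletion, none with ectopic Sox2 alone and 1 in wildtype. Its Nkx2-1 deleted summits had 66, 72, 42 and 39 fragments, and the second of these overlapped the wildtype summit, which had 30. These numbers are not scaled by depth.

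Other ABC genes had single summits with Nkx2-1 deletion, apart from Abca12 with 2. Abca5, a lysosomal lipid transporter gene, had 51 fragments at −log10 q 16.1, Abca13 had 47 at 15.4, Abca14 had 48 at 9.59 and the retinal transporter gene Abca4 had 68 at 8.30. Abcc2, which encodes the canalicular pump for conjugated anions, had 37 at 5.26. Abcc5, a cyclic nucleotide exporter like Abcc4, had a summit at the same position, 20414154 on chromosome 16, with 71 fragments with Nkx2-1 deletion and 16 with ectopic Sox2. These numbers are not scaled by depth. The fold there was 5.18 with Nkx2-1 deletion and 7.01 with ectopic Sox2. Its control background was 8.13 and 1.23 times the genome-wide level in the same order. Abcg1, a cholesterol exporter gene, had 22 fragments in wildtype only. Abca12, Abcc1 and Abcc12 with Nkx2-1 deletion and Abca17 in wildtype made up the rest.

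Lists of genes that handle bile acids, prostanoids or cyclic nucleotides were set beside the 13.1% of all protein-coding genes that lay within 50 kb of an Nkx2-1 deleted summit. That share is not matched for span, and the part of span length was not tested. Of 24 bile acid and cholesterol genes, 5 (20.8%) lay near one: the bile acid uptake transporter genes Slc10a1 and Slc10a2, the flippase gene Atp8b1, the bile acid receptor gene Gpbar1, and Abcc2. Their fragments were 50, 45, 42, 31 and 37. Of 19 prostanoid and cyclic nucleotide genes, 6 (31.6%) did: the prostaglandin synthase genes Ptgs2 and Ptges3, the prostaglandin receptor gene Ptger4, the phosphodiesterase genes Pde4a and Pde4d, and the kinase subunit gene Prkar2b. Ptgs2 had 3 summits, with 43, 41 and 61 fragments, and Ptger4 had 62. Pde4d had 76 fragments where the control background was 19.5 times the genome-wide level. Both lists had 0 members near a summit with ectopic Sox2 and 0 in wildtype, where 1.53% and 2.85% of all genes have one, so that on average fewer than 1 member would be near a summit at those shares. Neither gene list includes Abcc4 or Abcb11, which had summits with ectopic Sox2 and in wildtype.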

How the data were processed

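Sox2 ChIP libraries were sequenced with single-end reads of 50 bp, per the labels' protocols. The submitters' processing notes name Bowtie2 2.2.9, SAMtools 1.4, MACS2 2.1.1, HOMER 4.8.3 and the build mm10, with no role or order. The control library (input or IgG) and the calling threshold were not given in the sources used here, nor was any duplicate filter. The authors deposited 1 peak list for each Sox2 ChIP library, not pooled. Libraries of input and IgG were not analysed here. For each summit the deposited lists hold a score, a fold enrichment ratio against local control, −log10 p, −log10 q and the summit's offset. They are the authors' values, used within a list. Positions count from 1.

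MACS2's fold of (pileup + 1) / (background + 1) and its Poisson p fix both quantities, so ChIP fragments and control background were recovered at each summit. Fragments had to be whole within 0.02 after division by 1 scale per list, and backgrounds the genome-wide level or a multiple of 0.02. A single solution was found for 2588 of 2589 Nkx2-1 deleted summits, 229 of 229 with ectopic Sox2 and 552 of 552 in wildtype. On summits simulated under these same assumptions, 100% of single solutions were right in each of the 3 simulated lists. This checks the recovery, not whether the deposited lists follow the assumptions. Depth is the recovered mean ChIP coverage. Ratios between libraries were divided by the depth ratio, with exact conditional binomial 95% intervals. Intervals on fragments are exact Poisson 95% intervals, and all intervals cover counting error only. Where a region held several summits, the one with most fragments entered the ratio. Alternatives were other gene windows, stricter q values, other overlaps, scaling by shared regions, subtraction of the control background and reduced depth.

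Gene spans, starts and promoters came from RefSeq tables of GRCm38.p6 (the build of mm10), which held both genes. Exons and introns were not told apart. The planned motif count at summits was left out, as it needs a genome; promoter windows were searched instead, a choice made after seeing the data. Named genes are Abcc4 and Abcb11, protein-coding genes within 50 kb of their summits, the 5 genes per member with the nearest counts of summits (ties by span), ABC genes near a summit (values for up to 10 by −log10 q), and the listed bile acid, prostanoid and cyclic nucleotide genes near a summit. Flanking and non-coding genes are named for position and counts only. The members and lists were chosen with earlier results of these data known. Python 3.11.15, scipy 1.17.1, numpy 2.4.6 and pandas 2.3.3 were used.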

Additional observations from a re-analysis of the deposited data

How the results depend on the processing

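No paired analysis was possible because each group has 1 library. Of 114 recomputed values, 27 moved beyond their limits. Scaled by regions in every list, the ratio of Nkx2-1 deletion over wildtype at the common Abcc4 site turned from above 1 to 0.947, with an interval that included 1 under both scalings. Counting only summits of −log10 q 3 or more, Abcc4 had 0 with ectopic Sox2 and Abcb11 had 1 in wildtype, and with at least 5 the counts were 0 with ectopic Sox2 and 2 in wildtype at Abcc4, and 1 with Nkx2-1 deletion and 1 in wildtype at Abcb11. Inside the span and within 10 kb, Abcb11 had 1 summit with Nkx2-1 deletion. With each region counted once, none of the 6 counts moved beyond its limits, but Abcb11 had 2 in wildtype in place of 3. At ectopic Sox2 depth the expected wildtype count at Abcb11 was 1.35. With a reciprocal overlap of 50%, the Nkx2-1 deleted summits of Abcb11 found with ectopic Sox2 were 0 and in wildtype 1, and with summits matched within 200 bp none of the 6 counts of shared summits changed. By number of summits Abcc4 ranked 7th with Nkx2-1 deletion, 8th with ectopic Sox2 and 1st in wildtype, and Abcb11 160th, 8th and 2nd, where genes with equal counts share a rank (10, 328 and 1 genes at the ranks of Abcc4, and 446, 328 and 6 at those of Abcb11). By summits per 100 kb, Abcc4 ranked 249th with Nkx2-1 deletion, 307th with ectopic Sox2 and 6th in wildtype. Abcb11 ranked 518th, 265th and 9th in the same order. By summits inside the span both ranked 5th with ectopic Sox2, on 1 summit each, and Abcb11 5th in wildtype, on 2. Genes with equal values share these ranks too, and their numbers are not given. Without Abcc4 and Abcb11 the ABC genes near a summit were 1 of 51 with ectopic Sox2 and 3 of 51 in wildtype, beside 1.53% and 2.85% of all genes. With both included, 8 of 53 lay within 100 kb of a wildtype summit, beside 4.66% of all genes. With Nkx2-1 deletion, 3 of 24 bile acid genes and 3 of 19 prostanoid and cyclic nucleotide genes had a summit within 10 kb, beside 6.47% of all genes. With −log10 q of at least 5 the counts were again 3 and 3, beside 8.83% of all genes. Fragment ratios stayed within their intervals under both other settings, but with the scaling by regions in every list the interval of the Nkx2-1 deleted over ectopic Sox2 ratio at the common Abcc4 site (1.27) included 1. The causes were not tested. Few fragments limit some summits: at 14 to 17 fragments the interval spans more than a factor of 2.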
